A study of Mus musculus with 28 samples.

Results

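The genes of the cytosolic ribosomal proteins were followed through 28 libraries of cells sorted from mouse lung. Members were taken by symbol, as genes named Rpl or Rps followed by a number, together with the P-stalk genes and Rpsa. Symbols of ribosomal S6 kinases (Rps6k) and of annotated pseudogenes (-ps) were left out. The rule gave 88 genes that occurred in all 28 tables, of 19375 genes shared by all tables. They comprise 46 genes of the large subunit, 31 of the small subunit, 10 paralogs or retrogenes and Rps19bp1. The last of these matches the symbol rule but encodes a protein that binds Rps19 and is no ribosomal protein.

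The cells came from wild-type C57BL/6 mice aged 8 weeks and were sorted by flow cytometry. Their labels name alveolar epithelial cells of type 1 (AEC1) and type 2 (AEC2), basophils, and innate lymphoid cells of group 2 (ILC2). Mice were untreated, or received 50 µg papain per day through the nose, or received this papain with FK506. Papain is a plant protease that provokes allergic inflammation of the lung, and FK506 (tacrolimus) inhibits the phosphatase calcineurin. FK506 was given by intraperitoneal injection of 0.2 mg daily, in courses of 3 days separated by 2 days, and the later course ran together with papain. There were 2 libraries per condition for AEC1 and AEC2, 3 per condition for ILC2, and 3 papain, 3 papain with FK506 and 1 untreated library for basophils. The title of the untreated basophil library names controls 1 and 2. The labels do not say whether libraries came from separate animals, so p-values measure the spread between libraries only, which may be technical.

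A ribosome is built from a small subunit, which reads the messenger RNA, and a large subunit, which joins amino acids. Each ribosomal protein is present in the particle in about 1 copy, apart from the P-stalk proteins, and cells normally make them in balanced amounts. The messenger RNAs of ribosomal proteins are short, abundant and typically begin with a tract of pyrimidines (C and T), the TOP motif, through which the kinase mTOR controls their translation. Growing and activated cells are known to raise ribosome production. Most ribosomal protein genes also have many processed pseudogenes, which are copies of their messenger RNA inserted elsewhere in the genome.

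Several libraries stood apart from the rest. The AEC2 untreated replicate 2 and the AEC2 papain replicate 2 libraries nearly coincided: their log2 values correlated at 0.989 over 5752 genes, against 0.155 to 0.599 for the other 54 pairs of AEC libraries with recovered reads. Of 288 genes with exactly 1 read in the untreated library, 236 (81.9%) had exactly 1 in the papain library, against at most 5.73% in the other pairs. Of their 85 members above 0, 48 agreed within 20% after scaling to depth, against 3 to 34 in the other pairs. AEC2 results are therefore given with these libraries and in part also without them. The values of papain with FK506 against no treatment in AEC2 are given only with them. The untreated basophil library listed 90.6% of all genes at 0. The libraries labelled basophil summed to 0 to 293.9 CPM over 10 basophil markers, of which 7 to 10 were at 0 in each, including Mcpt8, and to 1529 to 7635 CPM over 10 macrophage markers. The AEC1 libraries summed to 827 to 1121 CPM over 10 markers of type 1 cells and to 5890 to 16433 CPM over 10 markers of fibroblasts and smooth muscle. AEC2 libraries summed to 121414 to 145770 CPM over 10 type 2 markers, and to 1830 to 3720 CPM over the type 1 markers, more than the libraries labelled AEC1. ILC2 libraries of replicates 1 and 2 summed to 2452 to 3812 CPM over 10 ILC2 markers. ILC2 replicate 3, whose files carry the code of the basophil files, summed to 560 to 4002 CPM over them and to 4099 to 6674 CPM over the type 2 markers. Cell type names are used below only as the labels give them, also for the basophil libraries, whose markers do not bear out the name. In bulk samples, fewer cells of a type and less RNA per cell cannot be told apart.

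Values are in CPM, that is, each count relative to the total of its library. The libraries read the 3′ end of transcripts, so values were not divided by gene length, and each gene is compared with itself across libraries. A value of 0 means only that the gene was listed at 0, since even the glycolytic gene Gapdh was so listed in most libraries. The start sites of 5 members named in the differences described next are shown here as examples. They come from RefSeq on GRCm38.p6, where 67 members matched with 79 annotated starts, and run from 15 bases before to 15 bases after the start, 5′ to 3′, with the longest run of C and T near the start in capitals. Every AEC library of Rps27, Rpl28 and Rpl35 lay above every other library, although for Rpl35 the lowest AEC value (225.4 CPM) was close to the highest of the others (219.1 CPM). Rps9 was the reverse, and Rps21 passed the test between AEC2 and AEC1, a call that was lost in 17 of 21 alternatives.
Rps27 (chr3:90213634-90213663, minus strand): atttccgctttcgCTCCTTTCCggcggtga
Rpl28 (chr7:4792950-4792979, plus strand): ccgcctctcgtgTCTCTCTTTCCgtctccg
Rpl35 (chr2:39005117-39005146, minus strand): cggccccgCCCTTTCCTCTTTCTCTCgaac
Rps9 (chr7:3704026-3704055, plus strand): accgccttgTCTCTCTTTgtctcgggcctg
Rps21 (chr2:180257364-180257393, plus strand): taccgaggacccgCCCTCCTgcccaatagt
Each holds such a run, of 9 bases in Rps27, 11 in Rpl28, 18 in Rpl35, 9 in Rps9 and 7 in Rps21. A run of at least 6 bases that touched the 10 bases on either side of the start was found on the coding strand at 40 of the 79 member starts (50.6%), and at 30% of all 32851 annotated starts. This is a description of letters in a window and says nothing of control by a factor. Among the 5 shown, Rps27, Rpl28 and Rpl35, which were high in AEC, and Rps9, which was high in the other libraries, all carried the run.

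Some ribosomal protein genes were abundant in 1 set of tables and low in the other, and others were alike in both. In 28 members every one of the 12 AEC libraries lay above every one of the 16 ILC2 and basophil libraries, and in 5 members every AEC library lay below. Among the 8265 genes that reached 10 CPM in at least 6 libraries, only 45 (0.544%) separated the libraries in the first way and 46 (0.557%) in the second. The 28 members thus made up 28 of those 45 genes, although 85 members were among the 8265 genes. Of the 71 mitochondrial ribosomal protein genes compared, which build the separate ribosome of the mitochondrion, 0 separated the libraries in either way. They were not matched to the members by level. The 28 members included 19 of the large and 8 of the small subunit, with the retrogene Rps27rt.

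**Figure D1:**
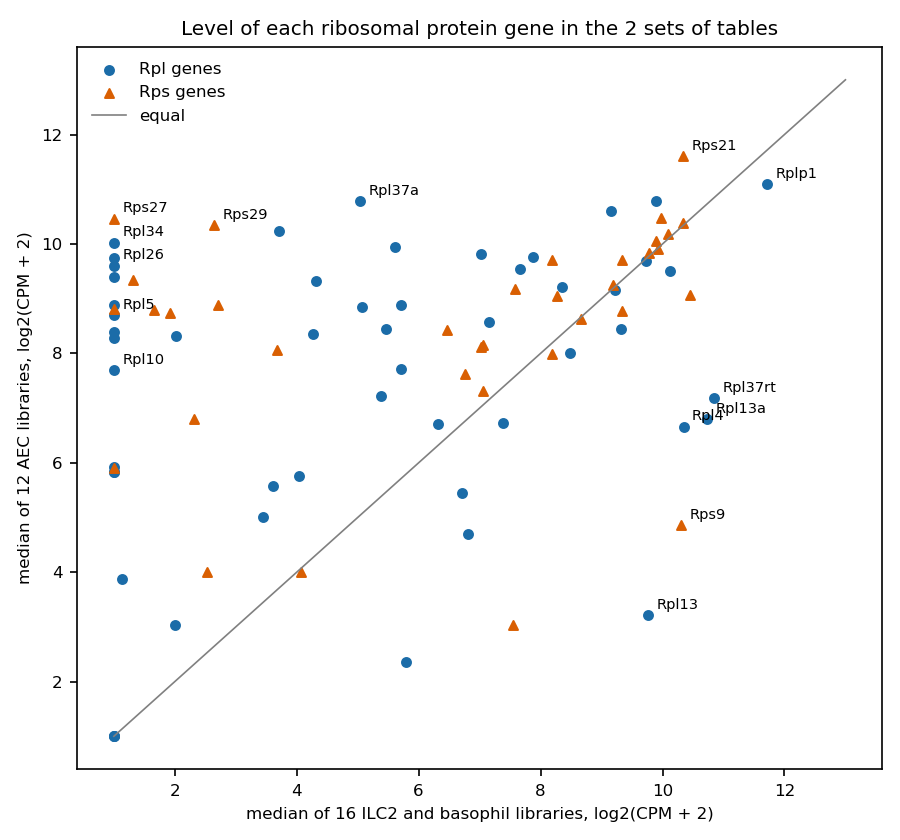
Median level of each of the 88 genes in the 16 ILC2 and basophil libraries (horizontal axis) and in the 12 AEC libraries (vertical axis), both as log2(CPM + 2). Points on the left edge, such as Rps27 and Rpl34, are listed at 0 in the median ILC2 or basophil library, points at the lower right, such as Rpl13 and Rps9, are low in AEC, and many points lie along the line of equal levels.

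Rps27 (ENSMUSG00000090733, chr3:90212522-90213651, minus strand), a zinc-binding protein of the small subunit, is one of the 28. It stood at 440.5 to 1442.1 CPM in the 6 AEC1 libraries and at 1380.4 to 2559.0 CPM in the 6 AEC2 libraries. In ILC2 it was listed at 0 in 8 of 9 libraries and at 11 CPM in untreated replicate 1, and in basophils it was listed at 0 in 5 of 7 and at 15.7 and 17.8 CPM in papain replicates 4 and 5. Rpl34, of the large subunit, ran from 521.0 to 1540.7 CPM over AEC libraries and from 0 to 32.0 CPM over the others. Rpl26, which lies near the exit of the peptide tunnel, ran from 354.2 to 1112.8 CPM in AEC and from 0 to 15 CPM in the others. No AEC library of these genes came near any ILC2 or basophil library.

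The same held for proteins with other roles. Rpl5, which carries the 5S ribosomal RNA together with Rpl11 and binds Mdm2, stood at 62.1 to 671.3 CPM in AEC and at 0 to 27.3 CPM in the others. Rpl10, among the last proteins to join the large subunit, stood at 96.5 to 447.1 CPM in AEC and at 0 to 6.0 CPM in the others. Rps29 stood at 805.0 to 1863.6 CPM in AEC and at 0 to 60.4 CPM in the others. Rps27a, which is made as a fusion with ubiquitin, stood at 233.5 to 667.0 CPM in AEC and at 0 to 20 CPM in the others. These proteins sit at different places in both subunits.

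The 5 members that lay lower in every AEC library were Rpl13, Rps9, Rpl13a, Rpl4 and the retrogene Rpl37rt. Rpl13 (ENSMUSG00000000740, chr8:123102350-123105244, plus strand) stood at 1.1 to 33.0 CPM over the 12 AEC libraries, at 646 to 2606 CPM in ILC2 and at 562.5 to 881.3 CPM in basophils. Rps9 (ENSMUSG00000006333, chr7:3703993-3706897, plus strand), which guards decoding accuracy in the small subunit, stood at 6.7 to 58.4 CPM in AEC, at 689 to 2487 CPM in ILC2 and at 549.8 to 1362.1 CPM in basophils. Rpl13a stood at 4.6 to 300.1 CPM in AEC and at 950 to 8013 CPM in the others. Rpl4 stood at 18.4 to 324.8 CPM in AEC and at 797 to 2511 CPM in the others. Rpl37rt stood at 28 to 409.1 CPM in AEC and at 840.1 to 3310 CPM in the others.

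Other members were alike in both sets of tables. Rps3, at the entry of the messenger RNA channel, differed by 0.05 in mean log2(CPM + 2) between the 12 AEC and the 16 other libraries, Rps24 by 0.00, Rpl22 by -0.02 and Rps15 by 0.00. In all, 27 members lay within 1 log2 unit of equality, 27 were over 4 log2 units higher in AEC, and 3 were over 4 log2 units lower. Those within 1 unit include Rpl10l and Rpl39l, listed at 0 in all 28 libraries, and Rpl3l, listed at 0 in every AEC library. For these genes the small difference reflects no detected level. The shares past 4 units were 35.3% of the 85 members among the 8265 genes compared and 3.69% of all those genes. None of 71 mitochondrial ribosomal protein genes, 25 ribosome biogenesis genes or 9 assembly chaperones compared passed 4 units. Of 29 initiation factors 1 did (Eif3j1), of 8 elongation factors 1 did (Eef2), and of 23 housekeeping genes 5 did, with Tmsb4x and Ftl1 among them, all 5 lower in AEC. These lists were not matched to the members by level. With 2 CPM added, a gene near the limit of 10 CPM cannot reach 4 units. Fau, whose product is a ubiquitin-like fusion with a small-subunit protein, stood at 132.2 to 931.3 CPM in AEC and at 0 to 301.7 CPM in the others.

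The order of the 88 genes within a library followed the set of tables. Spearman's rho between libraries, given as a description over genes that share each library, had a median of 0.896 between AEC1 and AEC2 and of 0.891 between ILC2 and basophils. Between AEC libraries and the ILC2 and basophil libraries it ranged from 0.173 to 0.406, with a median of 0.297 over 192 pairs. ILC2 replicates 1 and 2, whose files carry another code, correlated at a median of 0.893 with the treated basophil libraries and of 0.273 with AEC, and ILC2 replicate 3 at 0.897 and 0.289. Over all 8265 genes compared, the medians were 0.367 between AEC1 and AEC2, 0.396 between ILC2 and basophils and 0.260 between AEC1 and ILC2. With the untreated basophil library, rho was as low as 0.678 within basophils and 0.706 between ILC2 and basophils, and without it no lower than 0.889 and 0.851.

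The AEC tables also differed from the ILC2 and basophil tables in their make-up. AEC values summed to 986819 to 992526 CPM per library, whereas the ILC2 values summed to 519768 to 636598 CPM and the basophil values to 612434 to 672357 CPM. AEC tables hold 22083 genes, with mitochondrial ribosomal RNA and Rn18s among them. Which of these RNAs the ILC2 and basophil tables hold is not given here. The last section gives the summed level in ILC2 without mitochondrial and ribosomal RNA genes in the total. Cell type and the way the tables were made cannot be told apart in this design, since no cell type occurs in both sets. Of the 86 members with a transcript in the annotation, 60 (69.8%) shared at least 100 of their last 300 bases, at 95% identity or more, with another annotated gene, against 17.7% of all protein-coding genes. Of the 523 such copies of members, 480 are annotated pseudogenes. Among the 27 members over 4 log2 units higher in AEC, 21 (77.8%) had such a copy, and among the 27 within 1 unit 16 (59.3%) had one. The sources used here do not say how reads matching several genes were counted, and the part of such reads in the pattern was not tested.

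**Figure D2:**
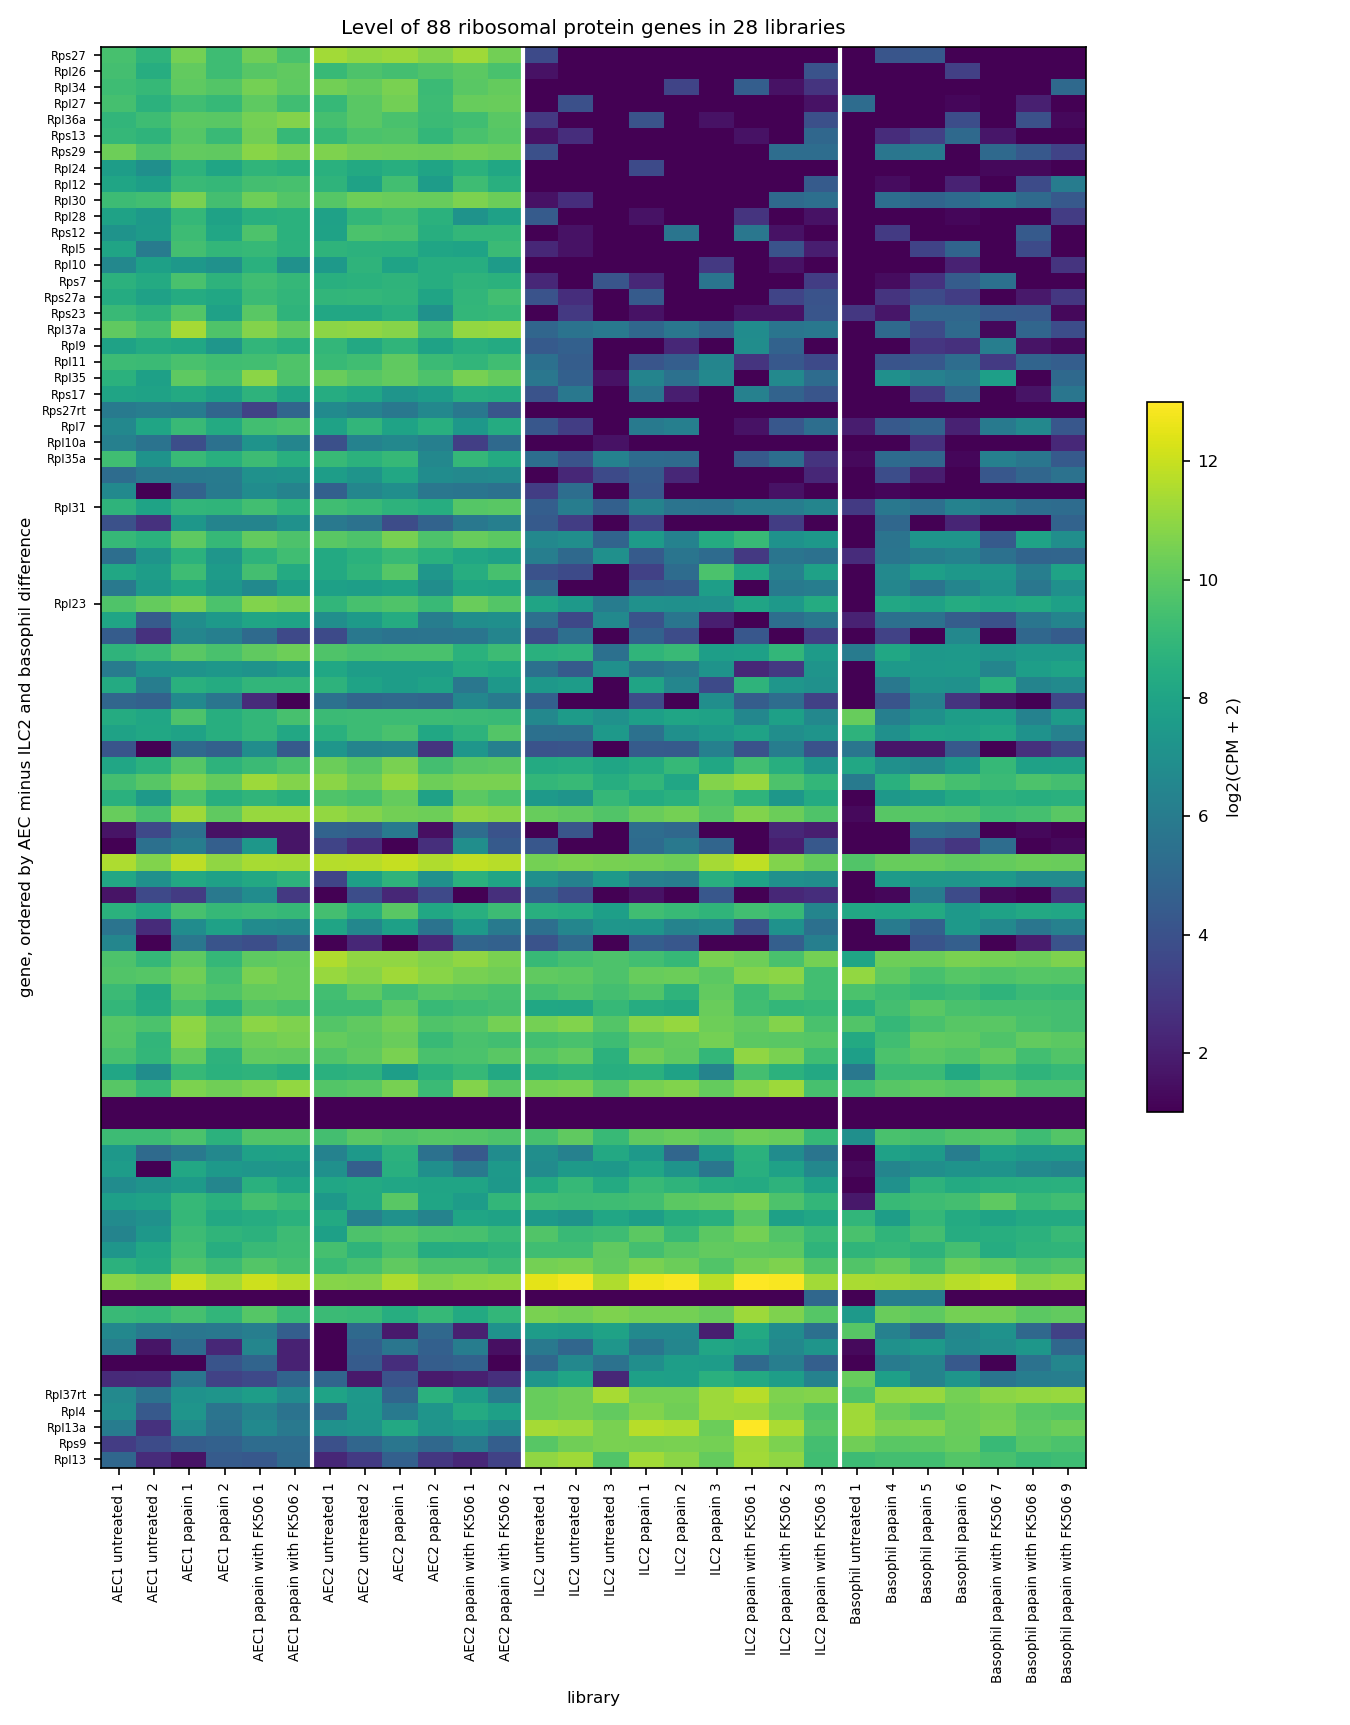
Level of the 88 genes (rows, ordered from highest to lowest difference between AEC and the other libraries) in each of the 28 libraries (columns), as log2(CPM + 2) by colour, with names at the 28 and 5 genes whose AEC libraries all lie above or all below the others. Rows at the top are bright in the 12 AEC columns and dark in the 16 others, rows at the bottom are the reverse, and the untreated basophil column has 46 dark cells at 0.

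The number of members listed at 0 differed in the same direction. Each library of AEC1 and AEC2 had 3 to 8 such members, each ILC2 library 11 to 36 and each basophil library 12 to 46. As 1 example, AEC2 papain replicate 1 listed 79.9% of all its genes and 5 members at 0. ILC2 untreated replicate 3, with the most members at 0 of any ILC2 library, listed 80.0% of genes and 36 members at 0. The shares of all genes at 0 by cell type are not given here. In the other direction 78 members were above 0 in every AEC1 library and 79 in every AEC2 library, against 46 in every ILC2 and 40 in every basophil library. These counts rest on 6, 6, 9 and 7 libraries, and a larger number of libraries lowers such a count. Rpl10l and Rpl39l, paralogs known chiefly from the testis, were listed at 0 in all 28 libraries.

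The other paralogs each had their own pattern. Rpl3l, which replaces Rpl3 in heart and skeletal muscle, was at 0 in every AEC library and above 0 in 3 others, at 30 CPM in ILC2 papain with FK506 replicate 3 and at 68.2 and 65.0 CPM in basophil papain replicates 4 and 5. Rps27rt, a retrogene of Rps27, was at 0 in all 16 ILC2 and basophil libraries and at 8.2 to 104 CPM in every AEC library. Rps27l, a p53-regulated paralog of Rps27, stood at 61.7 to 320.3 CPM in AEC, at 3 to 147 CPM in ILC2 and at 85.1 to 244.9 CPM in treated basophils, and was listed at 0 in the untreated basophil library. Rpl22l1, the paralog of Rpl22, stood at 56.1 to 291.2 CPM in AEC and at 0 to 207 CPM in ILC2. Rpl36al, the intronless paralog of Rpl36a, stood at 236.8 to 883.3 CPM in AEC and at 40 to 433.5 CPM in the others, in which Rpl36a did not pass 15 CPM. Rpl7l1 ranged from 4.6 to 90 CPM in AEC and from 0 to 95.5 CPM in the others, and Rps4l from 0 to 159.9 CPM over all libraries. Rps19bp1 ranged from 0 to 88.7 CPM.

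The summed level of the 88 genes, in percent of all listed CPM, lay between 2.58 and 6.30% in AEC1 libraries, between 4.0 and 6.19% in AEC2 libraries, between 3.78 and 10.2% in ILC2 libraries and between 3.89 and 5.06% in basophil libraries. These ranges overlapped. On the deposited CPM scale, without division by the listed total, the sums were 25569 to 62146 CPM in AEC1, 39644 to 61294 CPM in AEC2, 24089 to 64261 CPM in ILC2 and 24582 to 31008 CPM in basophils, so that every basophil library lay below every AEC2 library. The medians moved from 6.60 to 3.98% in ILC2 and from 4.20 to 2.75% in basophils between these scales. The 3 highest members by mean were Rplp1, Rps21 and Rpl37 in AEC1, Rps21, Rplp1 and Rps27 in AEC2, Rplp1, Rpl13a and Rpl37rt in ILC2 and Rplp1, Rpl37rt and Rpl13a in basophils. The P-stalk, which recruits elongation factors to the large subunit, is formed by Rplp0, Rplp1 and Rplp2. Rplp1 ran from 1526.1 to 4343.2 CPM in AEC1, from 1766.7 to 3031.7 CPM in AEC2, from 2572 to 10265 CPM in ILC2 and from 2090.3 to 4234.6 CPM in basophils. Within ILC2 it stood at 5731 to 10265 CPM in the 6 libraries of replicates 1 and 2 and at 2572 to 3420 CPM in the 3 libraries of replicate 3, so the sets with different file codes did not overlap. Small-subunit genes made up 40.8 to 45.9% of the subunit sums in ILC2 replicates 1 and 2 and 50.1 to 51.3% in replicate 3. Rpsa, a small-subunit protein also known as the laminin receptor precursor, ran from 0 to 290.1 CPM in AEC1, from 23.1 to 380.1 CPM in AEC2, from 51 to 372 CPM in ILC2 and from 0.5 to 141.8 CPM in basophils.

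**Figure D3:**
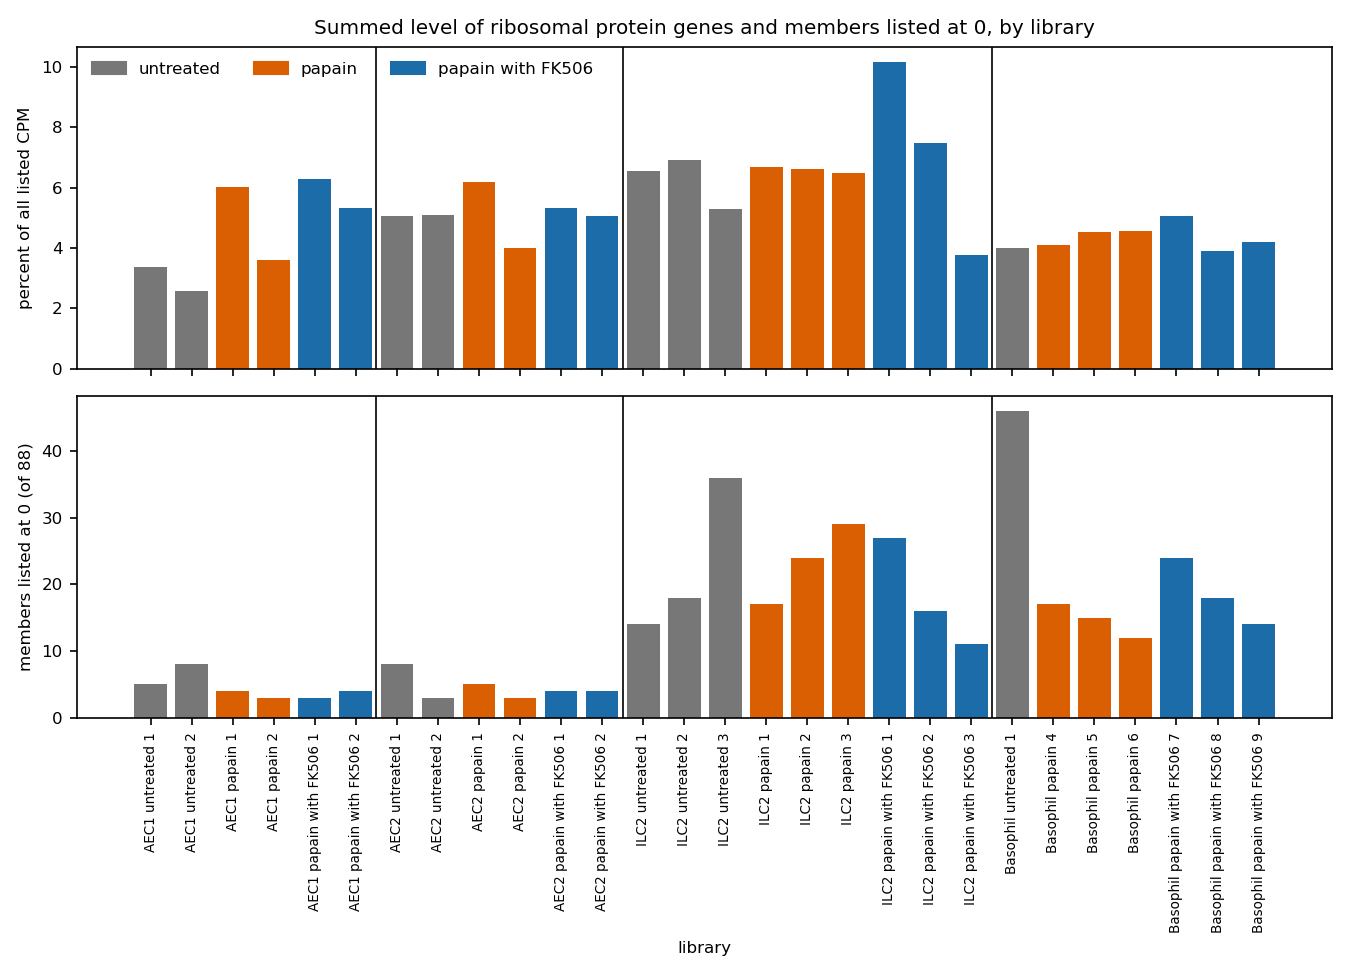
Upper bars give the summed level of the 88 genes in percent of all listed CPM in each library, and lower bars the number of members listed at 0, coloured by treatment. The AEC bars of the lower panel stay at 3 to 8 and those of ILC2 and basophils at 11 to 46, while the sums in percent of listed CPM overlap between cell types. On the deposited CPM scale the basophil sums (24582 to 31008 CPM) lie below all AEC2 sums (39644 to 61294 CPM).

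Papain was compared with no treatment in AEC1 to ask how these cells respond to the allergen. No member passed the threshold, with edgeR's TMM scaling and limma's test and Benjamini-Hochberg adjustment over all genes, and 0% of the 8178 genes tested did, although values leaned upward. Of 85 members tested, 76 had a positive difference, with a median of 0.83 log2 units against 0.17 over all genes tested. In 47 members both papain libraries lay above both untreated ones, and 19.6% of all genes did so. In 2 members, Rpl10a and Rpl21, both papain libraries lay below, as in 14.0% of all genes. At an unadjusted p under 0.05 there were 21 members and 761 (9.31%) of all genes, and edgeR on the recovered reads called 0 members and 15 genes.

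The 3 members of smallest p in AEC1 were Rplp0, Rpl36 and Rplp1. Rplp0, the scaffold of the P-stalk, measured 84.2 and 164.5 CPM in untreated libraries, 599.3 and 454.1 CPM under papain, and 417.8 and 596.9 CPM under papain and FK506. Its difference between papain and untreated libraries was 2.14 ± 0.53 log2 units (SE, adjusted p = 0.44 by limma). Rpl36 stood at 13.5 and 4.6 CPM untreated and at 159.9 and 84.1 CPM with papain, a difference of 3.58 ± 0.97 (SE, adjusted p = 0.44 by limma). Rplp1 stood at 1848.5 and 1526.1 CPM untreated and at 4308.3 and 2619.3 CPM with papain, a difference of 1.02 ± 0.28 (SE, adjusted p = 0.44 by limma). The groups did not overlap in any of these genes, and the adjusted p missed the threshold in all of them.

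The summed level in AEC1 was 33273 and 25569 CPM untreated, 59424 and 35903 CPM with papain, and 62146 and 52557 CPM with papain and FK506. Markers of fibroblasts and smooth muscle summed to 8511 and 5890 CPM untreated, 16433 and 6900 CPM with papain, and 14767 and 10425 CPM with papain and FK506. Within each treatment, the library with the higher summed level of the members also had the higher marker sum. The papain and untreated libraries overlapped in the marker sum (6900 CPM with papain, 8511 CPM untreated) and not in the summed level. Of the 10 markers 2 or 3 were at 0 in the untreated libraries and none in the treated ones. Type 2 markers summed to 6808 and 10209 CPM untreated and to 1697 to 4789 CPM in the treated libraries. Genes above 0 numbered 6334 and 6488 untreated and 6844 to 7334 in the treated libraries. The part of these differences in the ribosomal protein levels was not tested.

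Under papain 0% of the 8178 genes tested in AEC1 passed, so lists of other translation genes could hold no called gene. The lists held 26 ribosome biogenesis genes, 9 elongation factors, 29 initiation factors, 64 mitochondrial ribosomal protein genes and 20 housekeeping genes tested. Their median differences were 0.79, 1.5, 0.48, 0.76 and 0.80 log2 units, so the members' median of 0.83 lay within the range of these lists. The 13 other genes with a TOP motif and 11 assembly chaperones tested had medians of 0.65 and 1.64. The 9 regulators of TOP messenger RNAs and 5 genes of the p53 response to ribosome stress tested had medians of -0.16 and -0.01. The lists were chosen with earlier results of these data known.

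FK506 added to papain gave no called member in AEC1, against 0% of all genes. Of the members, 23 lay higher and 9 lower in both FK506 libraries than in both papain libraries, against 17.3% and 15.0% of all genes, and 1 had an unadjusted p under 0.05, as did 6.07% of all genes. This was Rpl15, which measured 101.6 and 48.2 CPM under papain alone, then 3.5 and 0 CPM under both agents (adjusted p = 0.66 by limma). Next in order were Rpl14, at 185.3 and 89.2 CPM with papain and 395.6 and 266.6 CPM with FK506 added (adjusted p = 0.86 by limma), and Rpl10a, at 12.7 and 42.0 CPM and 143.5 and 87.3 CPM (adjusted p = 0.87 by limma). The comparison of papain with FK506 against no treatment shares its untreated libraries with the papain comparison. It gave 0 called members, against 0.0245% of all genes, a median member difference of 0.87 against 0.30 over all genes, and 57 members above without overlap, against 23.1% of all genes. Its smallest p belonged to Rpl35 at 1.92 ± 0.47 log2 units, Rpl36a at 1.42 ± 0.36 and Rpl12 at 1.45 ± 0.39 (SE, adjusted p = 0.31 by limma for each).

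In AEC2 the members did not lean upward with papain. No member passed, against 0% of all 6719 genes tested, and the median member difference was -0.16 log2 units against 0.00 over all genes. At an unadjusted p under 0.05 there were 0 members and 0.223% of all genes, and edgeR, for which only 1 untreated library had recovered reads, called 0 of either. Both papain libraries lay above both untreated ones in 2 of 84 members (Rpl8 and Rps9) and below in 19, against 7.34% and 7.61% of all genes. These counts include the nearly coinciding pair, 1 of which is untreated and 1 papain. Without that pair 1 untreated and 1 papain library remain, with the spread taken from the 2 libraries with FK506. The median over 81 members was then -0.01 against 0.00 over all genes, and the absence of calls there (0) says nothing of stability. The summed level was 50207 and 50381 CPM untreated, 61294 and 39644 CPM with papain and 52683 and 50094 CPM with papain and FK506.

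The 3 members of smallest p in AEC2 under papain were Rpl37a, Rpl37 and Rps3a1 (adjusted p = 1.00 by limma for each). Rpl37a stood at 1900 and 2081.4 CPM untreated and at 1804.3 and 734.5 CPM with papain. Rpl37 stood at 2125 and 1753.6 CPM untreated and at 1412.5 and 1290.7 CPM with papain, and Rps3a1 at 9 and 220.8 CPM and at 440.8 and 132.3 CPM. Between papain with FK506 and papain, 0 members passed, against 0% of all genes, and 2 had an unadjusted p under 0.05, as did 4.23% of all genes. Rpl31 measured 426.8 and 355.7 CPM under papain alone, then 912.4 and 973.6 CPM under both agents, and Rpl28 617.2 and 404.2 CPM, then 139.2 and 228.7 CPM (adjusted p = 0.91 by limma for both). Rpl37a came next. Groups did not overlap in 18 members that lay higher and 12 lower with FK506, against 16.9% and 10.6% of all genes. Without the nearly coinciding pair, when papain is represented by 1 library, the median was -0.35 for members and 0.40 for all genes, from 0.02 and 0.06 with it. Between papain with FK506 and no treatment, which share libraries with the comparisons before, 0 members passed, against 0% of all genes, and 1 had an unadjusted p under 0.05, as did 4.57% of all genes. Groups did not overlap in 10 members that lay higher and 18 lower, against 17.1% and 12.4% of all genes. These counts include the untreated library of the nearly coinciding pair. Rps18 had the smallest p. It stood at 424 and 243.9 CPM untreated and at 51.6 and 169.0 CPM with both agents (adjusted p = 0.92 by limma). Rps3a1 and Rps14 followed it, both with an adjusted p of 0.92 by limma.

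The response to papain was compared between AEC2 and AEC1 as an interaction term over all 12 AEC libraries. No member passed in limma's test, against 0% of 9841 genes tested, and 11 members had an unadjusted p under 0.05, as did 4.61% of all genes. The median member value was -0.95 log2 units, AEC2 minus AEC1, against -0.16 over all genes, and 12 of 85 members were above 0. Rpl36, with the smallest p, differed by -5.05 ± 1.42 log2 units (SE, adjusted p = 0.97 by limma), followed by Rpl37 at -1.46 ± 0.48 and Rpl35 at -1.84 ± 0.64 (SE, adjusted p = 0.97 by limma for both). Without the nearly coinciding libraries, which leaves 1 untreated and 1 papain AEC2 library and takes the spread from the other groups, the median was -0.59. edgeR called 0 members and 14 genes. For FK506 added to papain, 0 members passed, against 0% of all genes, 2 had an unadjusted p under 0.05, as did 5.75% of all genes, and edgeR called 0 members and 20 genes. The median was -0.10 against 0.07 over all genes, and without the nearly coinciding libraries, again with 1 AEC2 papain library, -0.41 against 0.44. Rpl15 had the smallest p there, with a difference of 5.72 ± 1.54 log2 units (SE, adjusted p = 0.72 by limma), before Rpl10a (adjusted p = 0.79 by limma) and Rps14 (adjusted p = 0.91 by limma). A difference in response between both cell types was thus not shown.

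**Figure D4:**
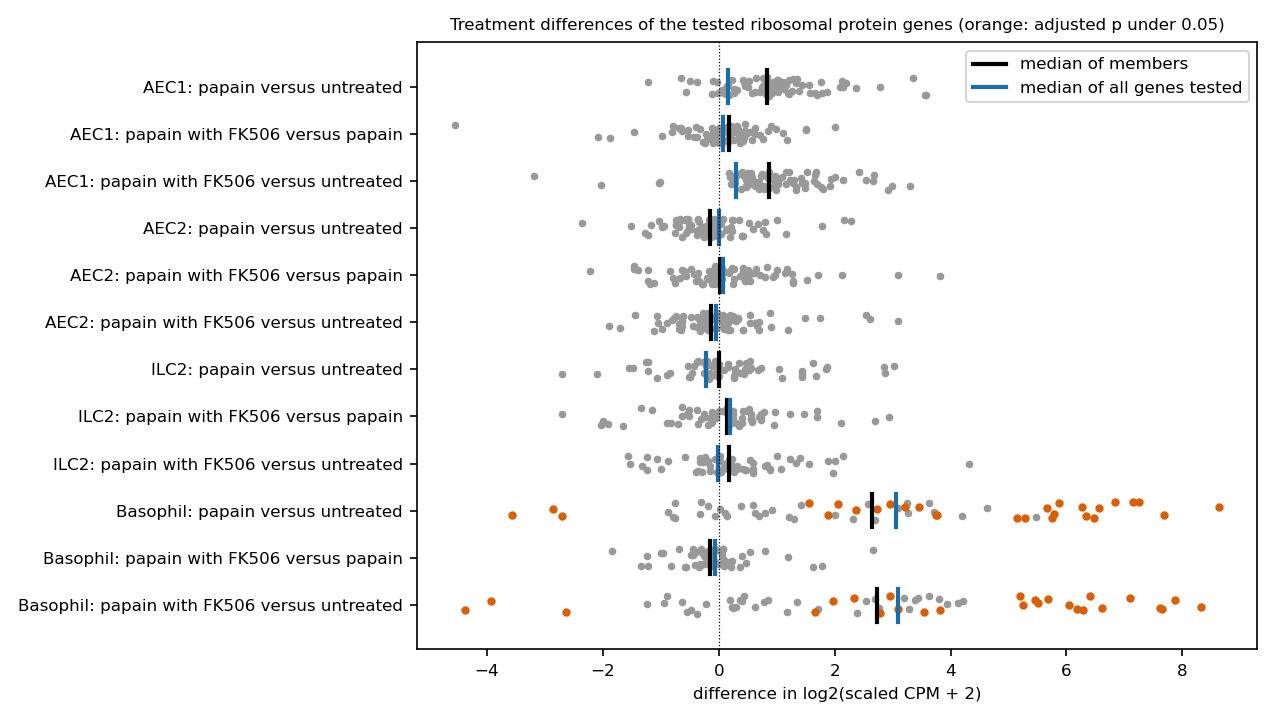
Each point is a tested ribosomal protein gene, placed by its difference in log2(scaled CPM + 2) for each of 12 treatment comparisons, with black lines at the median of the members and blue lines at the median of all genes tested. Orange points, with an adjusted p under 0.05 by limma, occur only in the comparisons with the 1 untreated basophil library, and the black line lies to the right of the blue one by 0.67 and 0.57 log2 units in the AEC1 comparisons with untreated libraries.

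In ILC2, treatment gave no called member. Papain against no treatment called 0 of 65 members tested, against 0% of 6271 genes, with a median member difference of 0.00 against -0.22 over all genes. Papain with FK506 against papain called 0, against 0.0159% of genes, with medians of 0.15 and 0.20. Papain with FK506 against no treatment called 0, against 0% of genes, with medians of 0.18 and -0.01. At an unadjusted p under 0.05 there were 3, 1 and 1 members in these comparisons and 3.73, 4.18 and 3.99% of all genes, and edgeR was not run because no reads could be recovered. The groups did not overlap in 3, 7 and 4 members in these comparisons: higher in 2, 4 and 4 and lower in 1, 3 and 0. Among all genes 2.63, 4.19 and 3.91% were higher and 4.13, 2.47 and 3.84% lower without overlap.

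The ILC2 members of smallest p under papain were Rpl21, Rps16 and Rps15 (adjusted p = 0.99 by limma for each). Rpl21 stood at 196, 172 and 237 CPM untreated and at 103, 102 and 2 CPM with papain, so the groups did not overlap. Rps16 stood at 14, 11 and 0 CPM untreated, at 8, 36 and 781 CPM under papain alone and at 281, 76 and 233 CPM under both agents. All 3 Rps16 libraries with FK506 lay above the untreated ones, at 4.32 ± 1.37 log2 units (SE, adjusted p = 0.98 by limma). Rps18 and Rpl38 came next in that comparison (adjusted p = 0.98 by limma for both). Rps15 stood at 396, 236 and 81 CPM under papain alone and at 682, 411 and 302 CPM under both agents, and was first there, before Rps29 and Rpl39 (adjusted p = 0.91 by limma for each). Rpl39 stood at 119, 210 and 197 CPM under papain alone and at 34, 68 and 23 CPM under both agents.

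The summed level in ILC2 was 33973, 37606 and 28885 CPM untreated, 41079, 40226 and 39772 CPM with papain, and 64261, 44129 and 24089 CPM with papain and FK506. The libraries with FK506 held both the highest and the lowest sum. The highest, replicate 1, had 3911 genes above 0. The lowest, replicate 3, summed to 5974 CPM over 10 macrophage markers, none at 0, while 8 ILC2 libraries summed to 0 to 552 CPM. The part of these markers in the sums was not tested.

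In the libraries labelled basophil, FK506 added to papain called 0 of 60 members tested, against 0% of 5853 genes. At an unadjusted p under 0.05 there were 2 members and 6.05% of all genes. The median member difference was -0.14 against -0.07 over all genes, and groups did not overlap in 3 members in each direction, against 5.48% of all genes higher and 5.91% lower. The members of smallest p were Rps28, at 129.3, 96.9 and 175.2 CPM with papain and 528.0, 229.9 and 242.0 CPM with FK506 added (adjusted p = 0.80 by limma), Rps4x, at 219.0, 81.4 and 150 CPM and 48.4, 66.2 and 67.3 CPM (adjusted p = 0.81 by limma), and Rps6 (adjusted p = 0.82 by limma). Summed levels were 27452, 28881 and 29576 CPM with papain and 31008, 25724 and 27397 CPM with FK506 added. The sums overlapped.

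Comparisons with the untreated state rest on 1 basophil library, whose spread was assumed to be that of the other groups. That library listed 46 of 88 members at 0, and its members summed to 24582 CPM, near the range of the treated libraries. With papain 25 members were called higher and 3 lower by limma, against 21.1% of all genes called higher and 2.0% called lower. With papain and FK506, which shares the untreated library, 23 were called higher and 3 lower, against 21.1% and 2.2% of all genes. The median of all genes tested was itself 3.05 and 3.09 log2 units higher, and the members' median was 2.64 and 2.73, that is, 0.41 and 0.36 below it. In 40 members every papain library lay above the untreated one and in 8 below, against 56.4% and 12.1% of all genes, and with both agents in 42 and 11, against 55.2% and 12.6%. A gene that passed the filter on low values only in the treated libraries had to lie higher in them, so the counts of higher members are a description of the untreated library.

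Of the genes called higher, Rpl37, of the large subunit, stood at 0.5 CPM in the untreated library and at 620.5 to 966.6 CPM in the 6 treated libraries. Rpl32 stood at 1.4 CPM and at 535.9 to 1045.1 CPM. Rpl23, Rpl14, Rpl41, Rps27l, Rps3a1, Rps16 and Rps18 were listed at 0 in the untreated library, and in the treated ones the lowest value among them was 54.4 CPM and the highest 435.9 CPM. No fold is given for these. The 3 called lower were the same in both comparisons: Rpl21, Rps25 and Rps4x. Rpl21 stood at 946.4 CPM untreated, at 76.2, 30.7 and 88.6 CPM under papain alone and at 134.8, 31.4 and 8.1 CPM under both agents. Its difference with papain was -3.56 ± 1.24 log2 units (SE, adjusted p = 0.049 by limma), and the call was lost without papain replicate 4, 5 or 6 or papain with FK506 replicate 8 (adjusted p up to 0.19 over all alternatives).

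Rps25, which some viral messenger RNAs need for initiation, stood at 1172.5 CPM untreated and at 69.5 to 214.3 CPM in the treated libraries, a difference with papain of -2.86 ± 0.80 log2 units (SE, adjusted p = 0.017 by limma). Rps4x, the X-linked form of a small-subunit protein, stood at 1198.0 CPM untreated and at 48.4 to 219.0 CPM in the treated libraries, a difference with papain of -2.70 ± 0.78 (SE, adjusted p = 0.021 by limma). That call was lost without papain replicate 5 (adjusted p = 0.053), and the call of Rps25 with both agents was lost without papain with FK506 replicate 8 (adjusted p = 0.064). Without a filter on low values all 3 lower calls with papain were lost. Initiation factors, 26 of which were tested, had 13 called higher and 1 lower with papain, and mitochondrial ribosomal protein genes 5 higher and 0 lower of 51. The untreated library had 2002 genes above 0, against 6401 to 7894 in the treated ones, and the part of this in each difference was not tested.

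AEC2 was compared with AEC1 over all treatments, with treatment in the model. Of 85 members tested, 5 were called higher in AEC2 and 0 lower by limma, against 4.43% of 9841 genes called higher and 8.25% called lower. All 5 are of the small subunit: Rps19, Rps27, Rps14, Rps28 and Rps21. The share of members called higher, 5 of 85, was near that of all genes, while the median member difference was 0.37 log2 units against -0.45 over all genes. The share of small-subunit genes in the subunit sums was 44.4 to 50.7% in AEC1 and 46.9 to 52.3% in AEC2, so these ranges overlapped. Only 3 members were called without AEC1 papain 2, either AEC1 library with both agents, AEC2 papain 1 or either AEC2 library with both agents.

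Rps19 (ENSMUSG00000040952, chr7:24884371-24889806, plus strand), mutated in Diamond-Blackfan anaemia, stood at 811.4 and 512.9 CPM in untreated AEC1, then 1022.8 and 508.5 CPM under papain, and 1049.0 and 1139.4 CPM under both agents. In AEC2 it stood at 3000 and 2043.7, 2052.2 and 1701.4, and 2071.0 and 1531.2 CPM. Every AEC2 library lay above every AEC1 library, and the difference was 1.43 ± 0.21 log2 units (SE, adjusted p = 0.0014 by limma). Rps27 stood at 721.7 and 440.5, 1442.1 and 606.9, and 1344.3 and 754.9 CPM in AEC1. In AEC2 it stood at 2559 and 2116.8, 2362.4 and 1735.9, and 2470.7 and 1380.4 CPM, a difference of 1.44 ± 0.25 (SE, adjusted p = 0.0040 by limma). The lowest AEC2 library of Rps27 lay below the highest AEC1 library, and both calls held under each of the 21 alternatives.

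Rps14 stood at 696.1 to 1557.8 CPM in AEC1 and at 1349.8 to 2461.9 CPM in AEC2, a difference of 0.90 ± 0.19 log2 units (SE, adjusted p = 0.011 by limma). It missed the threshold with edgeR on the recovered reads (adjusted p = 0.14). Rps28 (ENSMUSG00000067288, chr17:33819027-33824562, minus strand), near the exit of the messenger RNA channel, stood at 270.5 to 906.3 CPM in AEC1 and at 682.7 to 1513.5 CPM in AEC2, a difference of 1.08 ± 0.28 (SE, adjusted p = 0.029 by limma). Its call was lost with edgeR and in 8 of the 12 fits that leave out 1 library, all but those without AEC1 untreated 2, AEC1 papain 1, AEC2 untreated 2 or AEC2 papain 2. Rps21 (ENSMUSG00000039001, chr2:180257377-180258445, plus strand) stood at 1676.8 to 3585.2 CPM in AEC1 and at 3001.1 to 4002.6 CPM in AEC2, a difference of 0.53 ± 0.15 (SE, adjusted p = 0.045 by limma). Its call was lost in 11 of those 12 fits, all but that without AEC1 untreated 1. Adjusted p over the alternatives ranged from 0.021 to 0.12 for Rps28 and from 0.029 to 0.31 for Rps21.

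**Figure D5:**
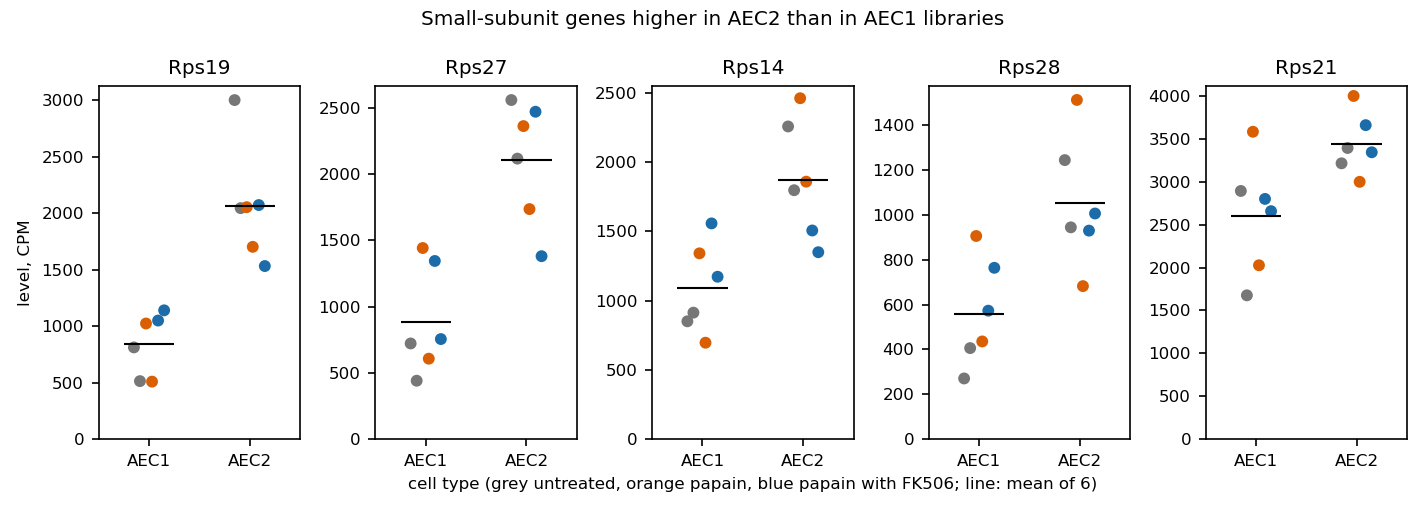
Level in CPM of the 5 called genes in each AEC1 and AEC2 library, with points coloured by treatment and a line at the mean of 6 libraries. Rps19 separates the cell types fully, from at most 1139.4 CPM in AEC1 to at least 1531.2 CPM in AEC2, and the points of the other 4 genes overlap.

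Rps27, Rps19 and Rps28 share their 3′ ends with 5, 10 and 7 other annotated genes, so their values are uncertain where reads could be assigned to either. Of 28 ribosome biogenesis genes tested in the same comparison, 0 were called higher and 5 lower in AEC2 (Dkc1, Ncl, Nop16, Npm1 and Rrs1), with a median of -1.30 log2 units, against 8.25% of all genes called lower and a median of -0.45. Of 13 other genes with a TOP motif, 0 were called higher and 4 lower (Nap1l1, Npm1, Pabpc1 and Vim), of 29 initiation factors 3 were called higher and 2 lower, and of 9 elongation factors 0 in either direction. Among 74 mitochondrial ribosomal protein genes 2 were higher and 1 lower. Markers of fibroblasts and smooth muscle came to 0 to 6.7 CPM in AEC2, with 8 to 10 of 10 at 0, against 5890 to 16433 CPM in AEC1, and their part in these differences was not tested.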

How the data were processed

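Per the labels' protocols, a Lexogen 3′ mRNA kit was used on 10 ng total RNA. STAR 2.7.0c, featureCounts 1.6.0, mm10 and GRCm38.p6 are listed per the submitters' processing notes, while alignment and strand settings are not given. The authors deposited CPM values. For the 9 ILC2 libraries and AEC2 untreated replicate 1, the authors' values are whole numbers of CPM size and were treated as a score, that is, rounded CPM. Whole reads were recovered for 11 AEC libraries, where 100% of values under 25 CPM lay within 0.1 read of a whole number, giving 847773 to 1336079 reads. For the other libraries the depth is unknown.

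A gene was tested where the number of libraries with 10 CPM or more was no lower than the size of the smallest replicated group. CPM values were divided by TMM factors (edgeR 4.0.16). limma 3.58.1 in R 4.3.3 was fitted to log2(scaled CPM + 2), two-sided, with Benjamini-Hochberg adjustment over all genes and a threshold of 0.05. ILC2 fits had a term for the code in the file names, which sets replicates 1 and 2 against replicate 3. Differences understate the change of low genes. The limma fit of papain against no treatment was tried on simulated counts for AEC1 and AEC2 only, with a fixed spread between libraries. The ILC2, basophil and AEC2 versus AEC1 fits were not simulated, so the trial says nothing of them. Alternatives included edgeR's quasi-likelihood test on recovered reads.

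Copies of 3′ ends were searched with BLAST 2.17.0 in GENCODE vM21 (GRCm38), the source of gene coordinates. In each comparison up to 8 called members in each direction are named, or the 3 of smallest p where none passed, with the 3 highest per cell type, those listed at 0 throughout, the P-stalk, Rpsa and the paralogs. Other members were named after their values were seen, and some items are not reported here. Members and lists were chosen with earlier results of these data known. Replicate numbers were not used to pair samples in the main fits, although in ILC2 they follow the file code.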

Additional observations from a re-analysis of the deposited data

Results flagged for a closer look

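Annotated pseudogenes of ribosomal proteins were left out of the comparisons, and 7 of their values, in treated AEC1, ILC2 and basophil libraries, lay above every untreated library of the same cell type. They were singled out because the value was at least 10 CPM and over 2 times the highest untreated value. Rpl14-ps1 stood at 742 CPM in ILC2 papain replicate 3, against at most 121 CPM untreated, and at 393.3 CPM in basophil papain replicate 5, against 0 in the 1 untreated library. In AEC1, Rps12-ps10 stood at 16.9 CPM in papain replicate 1, against 0, and Rps6-ps4 at 19.1 CPM in the same library, against 1.2 CPM. Rps15a-ps4 stood at 42.2 CPM in basophil papain with FK506 replicate 9, against 0. In ILC2, Rps15a-ps6 stood at 19 CPM in papain replicate 2, against 1 CPM, and Rps19-ps3 at 114 CPM in papain with FK506 replicate 1, against 0. Each value is that of 1 library and was not tested.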

How the results depend on the processing

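Every treatment comparison with 0 called members in AEC1, AEC2 and ILC2, both interaction terms and the FK506 comparison in basophils kept 0 under every alternative run, some of which leave 1 library in a group, where 0 calls says nothing of stability. Counts against the untreated basophil library ran from 21 to 31 with papain and from 23 to 28 with papain and FK506. The 5 members called between AEC2 and AEC1 became 3 without scaling factors, with median ratio size factors and with edgeR on recovered reads, and 3 to 5 when 1 library was left out. Leaving out both nearly coinciding AEC2 libraries, an alternative chosen after seeing the data, gave 5. Over all genes edgeR called 15 and 29 in the AEC1 comparisons with untreated libraries, where limma called 0 and 2, and 14 and 20 for the interaction terms, where limma called 0. Other scalings moved the median of all genes by over 0.1 in some comparisons, for ILC2 under papain from -0.22 to -0.05 without factors, while the members' median in AEC1 under papain lay 0.65 to 0.69 above that of all genes under each of 4 other scalings or tools. With the replicate block, 6 members were called between AEC2 and AEC1 and no other call changed. As deviations from their group means, same-numbered libraries correlated at -0.02 to 0.02 in AEC1, -0.01 to 0.45 in AEC2 and 0.05 to 0.24 in ILC2. The AEC2 libraries of replicate 2 include the nearly coinciding pair. In ILC2 the number follows the file code, and the libraries of replicate 3 correlated at 0.16 to 0.24. These values therefore do not settle whether equal numbers mark a shared origin.

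Members at 0 in every library numbered 3 in each cell type. Counting values under 10 CPM gave 5 in ILC2 and 9 in basophils, and leaving out 1 replicate number gave 3 to 6 in ILC2. The median summed level was 5.07% in AEC2 and became 6.21% without mitochondrial and ribosomal RNA genes in the total. It was 6.60% in ILC2, 8.00% without those genes, and 3.98% as the deposited CPM. In basophils it was 4.20%, and 2.75% as the deposited CPM. The members lower in every AEC library were 5, and 10 without ILC2 replicate 3 and the basophil libraries, a choice made after seeing the data. One read is worth about 1 CPM in AEC, so values of a few CPM rest on few reads.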
